A study of Danio rerio with 18 samples.

Results

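Transcripts of the regenerating caudal fin of vehicle-injected zebrafish were compared between 5 and 1 days post amputation (dpa), the whole span of a regeneration time course. The comparison used 6 of the 18 arrays of the series, namely the 3 labelled vehicle at 5 dpa and the 3 labelled vehicle at 1 dpa, and no measured value entered that choice. All fish were adult males of the AB strain. Fins were cut at the branching point of the rays, and fish were then injected intraperitoneally with phosphatidylcholine liposomes. Control fish received the liposomes alone, which are called vehicle here. The other fish received liposomes with TCDD, a dioxin that activates the aryl hydrocarbon receptor, to 50 ng/g body mass. Each array held RNA pooled from 10 fish, so the errors describe the spread between pools and not between fish. Tissue was taken by another cut on the body side of the first plane, so that a piece of the stump lay in every pool. Uninjured fins and fins without injection were not analysed here. The labels give arrays the letters A to E, which are B, D and E at 1 dpa and A, B and C at 5 dpa. Per-array values below keep that order.

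After amputation a wound epidermis closes over the stump within a day, and dedifferentiating cells of the stump then gather under it as the blastema. Cells of the blastema divide, grow out and differentiate again, osteoblasts laying down the hemirays of new bone and fibroblast-like cells filling the space between them. Fin rays are tipped by actinotrichia, rigid fibrils made of collagen and of the fish-specific actinodin proteins. Fgf, Wnt, Bmp, Hedgehog, activin and retinoic acid signals are all known to act in this tissue.

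Values are log2(intensity + 1), called levels here, and a log2 difference of 1 stands for a 2-fold change of the intensity. The test was limma's moderated test in a model of all 6 groups, with Benjamini-Hochberg adjusted p-values over 15502 probe sets, and a gene rose or fell where its adjusted p was under 0.05. Each gene was represented by its brightest probe set. The median intensity of the arrays ran from 75.13 to 84.12. The 3' minus 5' difference of the GAPDH control, a sign of RNA quality, was 3.03 on the 1 dpa array of letter B and ran from 1.38 to 2.26 on the other 5 arrays. All 9 epidermis markers lay above the 40th percentile of probe set levels, 5.44, whereas none of 5 liver markers did and 1 of 5 skeletal muscle markers did. The vehicle arrays were not alike in cyp1a, a cytochrome P450 gene induced by TCDD, which was looked up after values had been seen. At 1 dpa its level was 8.68, 4.48 and 4.19, and at 5 dpa it was 8.88, 10.13 and 6.06. All 6 stood below the 12.07 to 14.00 of the 9 TCDD arrays, but the arrays of letters A and B stood above those of C, D and E. The related gene cyp1c1 also stood higher on arrays of letters A and B than on those of C, D and E. Its levels were 7.57, 5.38 and 5.16 at 1 dpa and 7.15, 6.76 and 3.86 at 5 dpa. Because the letters differ between the days, 3 arrays with raised cyp1a (1 dpa B, 5 dpa A and 5 dpa B) were also left out together. That fit sets 1 array of 5 dpa against 2 of 1 dpa and assumes that the lone array varies like the other groups. All of its arrays are also in the main test, so a direction kept in it is not independent support. Results of that fit are called the 3-array check below, and the part of what raised cyp1a in the results was not tested beyond it.

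Of 8793 genes, 1911 changed, which is 21.7%. They were 656 genes that rose, 7.46% of those tested, and 1255 that fell, 14.3%. List counts of the main test below are to be read against these shares. Other fits passed other numbers of probe sets. The main test passed 2679, and fits with 1 vehicle array left out passed 1815 to 2821. The 3-array check passed far fewer. Shares of all genes are not given for those fits, so their list counts cannot be read against the shares above. The rises were the larger changes. By a log2 difference of 1 or more 342 genes rose (3.89%) and 263 fell (2.99%), 91 rose and 16 fell by 2 or more, and 28 rose and 5 fell by 3 or more. The median rise was 1.03 and the median of the genes that fell was -0.73, against -0.01 over all genes. All 1911 genes kept their direction in the 3-array check, in which 632 of them passed. Of 123 genes named below as changed, 34 did not pass that check. They are egfem1, anos1b, bhlha9, slc16a3b, junba, fosl2, jun, socs3b, cd74a, alas2, erg, fli1, vegfaa, anxa1c, mmp14b, twist3, hoxc13a, dlx4b, dlx2a, fgf24, fzd7a, dkk3b, fzd10, shha, hhip, smad6a, her6, stra6, cyp26b1, uhrf1, orc2, eno1a, kdelr3 and apoc1. Among the 89 that passed, the check moved the fold of 10 by more than 1.5-fold, to 6.70 for enam, 5.93 for and1, 2.81 for and3, 7.20 for ifitm5, 5.1 for loxa, 4.6 for hgd, -2.28 for timp2b, -4.82 for ntrnl2, -4.78 for jac4 and 1.33 for dusp6 (log2 differences). The 123 genes leave out the zic, semaphorin and neuropilin genes, ddc and jac1, which are named at the end. For those the 3-array check is not given. In a fit with letter blocks, where the replicate letter is a term of the model, 1333 of the 1911 genes passed. Whichever single vehicle array was left out, 1034 of the 1911 passed.

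**Figure D1:**
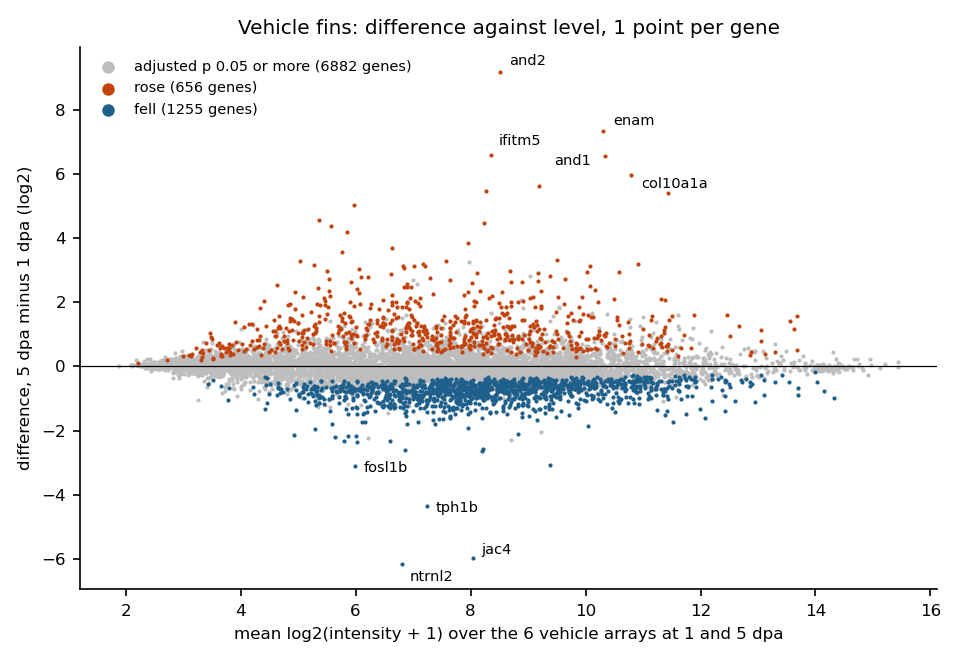
Difference between 5 and 1 dpa (vertical axis, log2) against mean level over the 6 vehicle arrays (horizontal axis, log2 of intensity + 1), with 1 point per gene and colours for the 656 genes that rose, the 1255 that fell and the 6882 that did not pass. Rises reached 9.20 for and2, whereas most falls were small and spread over mid and high levels.

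The 15 largest rises, chosen by a rule on size, test and absence of overlap, ran from 12-fold to 587-fold and included actinodins, bone-restricted proteins and type X collagens. Over all genes the 5 dpa arrays lay wholly above the 1 dpa arrays for 18.2% and wholly below them for 22.6%. Of these 15 genes, 7 had a mean level under the 40th percentile at 1 dpa, so that their folds rest on a dim first value.

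The actinodins and1, and2 and and3 encode structural proteins of actinotrichia. and2 had levels of 3.58, 4.35 and 3.83 at 1 dpa and 12.98, 12.83 and 13.54 at 5 dpa. It was dim on every 1 dpa array and bright on every 5 dpa array. The rise was 9.20 ± 0.37 (log2 difference ± SE) or 587-fold, with an adjusted p of 1.68e-09. and1 had levels of 5.77, 8.49 and 6.89 at 1 dpa and 13.61, 13.58 and 13.62 at 5 dpa. Its spread was wide at 1 dpa and narrow at 5 dpa, and the rise of 6.56 ± 0.50 (94.1-fold, adjusted p = 2.37e-06) became 60.3-fold without 1 dpa B and 155-fold without 1 dpa D. and3 had 3.81, 4.02 and 4.1 at 1 dpa and 8.37, 7.43 and 6.87 at 5 dpa, a rise of 3.58 ± 0.41 (adjusted p = 6.51e-05). At 3 dpa and2 already stood at 11.86, 11.54 and 12.46, but and3 at 4.57, 4.05 and 4.98. and3 was the only one of the 15 largest rises whose 3 dpa mean lay closer to 1 dpa than to 5 dpa. The fourth measured gene of the actinodin and fin fold list, fbln1, was dim and differed by 0.09 (adjusted p = 0.865).

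Genes of bone matrix and mineral rose beside them. enam, named for the enamel matrix protein of mammals, had levels of 4.91, 8.61 and 6.38 at 1 dpa and 13.91, 13.81 and 14.19 at 5 dpa. Its rise of 7.34 ± 0.69 (162-fold, adjusted p = 1.38e-05) varied with the uneven 1 dpa arrays, from 88.9-fold without 1 dpa B to 321-fold without 1 dpa D. ifitm5, a membrane protein of bone-forming cells, went from 5.98, 3.93 and 5.24 to 11.61, 11.55 and 11.79, a rise of 6.60 ± 0.60 (97.0-fold, adjusted p = 1.02e-05). phex, a peptidase whose loss impairs bone mineral in mammals, went from 5.45, 5.80 and 5.69 to 8.80, 8.60 and 8.90, a rise of 3.12 ± 0.31. For all 3 genes the 3 dpa mean lay closer to 5 dpa than to 1 dpa. Of 17 measured genes of osteoblasts and mineral, 11 rose (64.7%, against 7.46% of all genes) and none fell, with a median difference of 1.34. In the 3-array check 7 rose. twist1a and twist3, of a transcription factor family that holds back osteoblast maturation in mammals, rose by 2.02 ± 0.36 and 2.33 ± 0.44, and anos1a, a secreted matrix protein of the anosmin family, rose by 2.02 ± 0.26. The transcription factor sp7, a defining osteoblast marker, stayed dim (3.90 ± 0.19 at 1 dpa and 4.07 ± 0.25 at 5 dpa, mean ± SD, n = 3), as did runx2b. spp1, which encodes the bone matrix protein osteopontin, was 8.69 ± 1.08 and 10.10 ± 0.17, a difference of 1.41 with an adjusted p of 0.0893. The set of runx2a, the master regulator of osteoblasts, rose by 3.21 ± 0.24, but its design name is shared with a set annotated to col1a1a. The other runx2a set was dim and differed by -0.27 (adjusted p = 0.302). Of the 6 measured osteoblast markers 3 passed, this runx2a set among them. In pools of whole tissue, more cells of a type and more RNA per cell cannot be told apart.

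Collagens rose together with the enzymes that modify and cross-link them. Of 19 measured collagen genes 10 rose and none fell (median difference 0.71), and of 17 genes of collagen processing 13 rose and none fell (median 1.38). The type X collagen genes are made by hypertrophic cartilage in mammals and also by osteoblasts in fish. col10a1a went from 8.57, 6.91 and 7.94 to 13.75, 13.77 and 13.81, a rise of 5.97 ± 0.48 (62.6-fold, adjusted p = 4.08e-06). col10a1b went from 9.88, 7.32 and 8.99 to 14.12, 14.18 and 14.11, a rise of 5.40 ± 0.68 that was 42.4-fold with all arrays and 26-fold without 1 dpa D. Both had 5 dpa arrays within 0.1 of each other, at the bright end of the array. col11a1a, a fibrillar collagen of the minor type XI, rose by 3.12 ± 0.35 (8.72-fold) from 7.81, 8.75 and 8.96 to 11.59, 11.78 and 11.52. The type I genes col1a1a and col1a2, the main collagens of bone and skin, began high, at 12.90 ± 0.42 and 12.84 ± 0.41, and rose by 1.57 ± 0.20 and 1.42 ± 0.20. The col1a1a set carries a suffix for sets that can match more than 1 transcript. col6a3, of microfibrillar type VI collagen, rose by 2.08 ± 0.28 (4.23-fold, adjusted p = 0.000209).

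Among the processing genes, loxa encodes lysyl oxidase, which starts collagen cross-links. It had levels of 6.47, 5.13 and 6.39 at 1 dpa and 10.27, 10.28 and 10.87 at 5 dpa, a rise of 4.48 ± 0.48 (22.3-fold, adjusted p = 3.94e-05). At 3 dpa it was 8.14, 7.77 and 9.12, between the days. plod1a, a lysyl hydroxylase, rose by 2.73 ± 0.28 (6.64-fold), tgm2b, a cross-linking transglutaminase, by 2.13 ± 0.24, and loxl2b, another lysyl oxidase, by 1.84 ± 0.27. fkbp10b, a collagen chaperone of the endoplasmic reticulum, rose by 1.68 ± 0.24. sparc, a collagen-binding protein of bone, was bright throughout and rose by 1.16 ± 0.12, from 12.74, 13.21 and 13.22 to 14.29, 14.10 and 14.24. The 4 processing genes that did not pass also had positive differences, and the 3-array check gave 9 rises of 17 processing genes and 8 of 19 collagens.

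Of 26 matrix glycoprotein and hyaluronan genes 10 rose (38.5%) and 3 fell (11.5%, against 14.3% of all genes), with a median of 0.49, and the 3-array check gave 6 and 3. thbs4b, a thrombospondin of tendon-like matrix, rose by 2.94 ± 0.25 (7.66-fold, adjusted p = 6.56e-06) from 8.97, 8.77 and 9.61 to 11.82, 12.33 and 12.01. ncana, encoding the hyaluronan-binding proteoglycan neurocan, rose by 4.39 ± 0.52 (20.9-fold) from dim levels of 3.45, 3.28 and 3.39 to 7.21, 7.97 and 8.10. efemp2b, a fibulin of elastic fibres, rose by 2.43 ± 0.31, lamb1a, a laminin chain of basement membranes, by 2.0 ± 0.29, and postnb, the matricellular protein periostin, by 1.13 ± 0.13. In contrast fn1b, a fibronectin, which forms provisional wound matrix, went from 13.37, 13.60 and 13.56 to 12.63, 12.20 and 12.34. The fall was by 1.12 ± 0.15 on the log2 scale (adjusted p = 0.000161). The small leucine-rich proteoglycans, which bind collagen fibrils, rose in 3 of 4 measured genes. These were bgnb (2.78 ± 0.33), aspn (1.62 ± 0.22) and dcn (1.46 ± 0.17), and all 3 passed in the 3-array check. kera was dim on all arrays.

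Of 11 measured matrix proteases and their inhibitors 4 rose and 1 fell (9.09%, against 14.3% of all genes), with 3 and 1 in the 3-array check. The gelatinase mmp2, the stromelysin-type mmp11b and the membrane-bound mmp14b rose by 1.45 ± 0.15, 1.35 ± 0.17 and 0.88 ± 0.21. The paralogous inhibitors timp2a and timp2b moved in opposite directions. timp2a went from 11.09, 10.39 and 10.67 to 12.37, 12.21 and 12.31, a rise of 1.58 ± 0.18 (adjusted p = 6.14e-05). timp2b went from 11.44, 10.28 and 11.07 to 7.34, 7.82 and 8.39, a fall of 8.45-fold (difference -3.08 ± 0.38, adjusted p = 0.000108). The arrays of the 2 days did not overlap for timp2a, and 18.2% of all genes lay wholly higher at 5 dpa. timp2b is among the 15 largest falls, for which absence of overlap was part of the rule.

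The remaining genes among the 15 largest rises belong to no single class. ecrg4a, the precursor of a secreted peptide known as augurin, rose 49.6-fold from 6.60, 5.84 and 6.68 to 11.95, 11.91 and 12.17. hsd17b8, a dehydrogenase of the hydroxysteroid family, rose 44.5-fold from 5.52, 5.62 and 5.47 to 11.05, 11.11 and 10.88, but another set of the gene differed by -0.40 (adjusted p = 0.146). fabp7a, a fatty acid binding protein known from radial glia, rose 33.1-fold from 3.29, 3.50 and 3.54 to 8.78, 8.05 and 8.65. hgd, an enzyme of tyrosine breakdown, rose 14.4-fold, and cyp2r1, a vitamin D hydroxylase, rose 12.9-fold. egfem1, a gene with epidermal growth factor-like repeats, rose 18.1-fold, with an adjusted p of 0.000258 over all arrays and 0.0505 in the 3-array check.

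**Figure D2:**
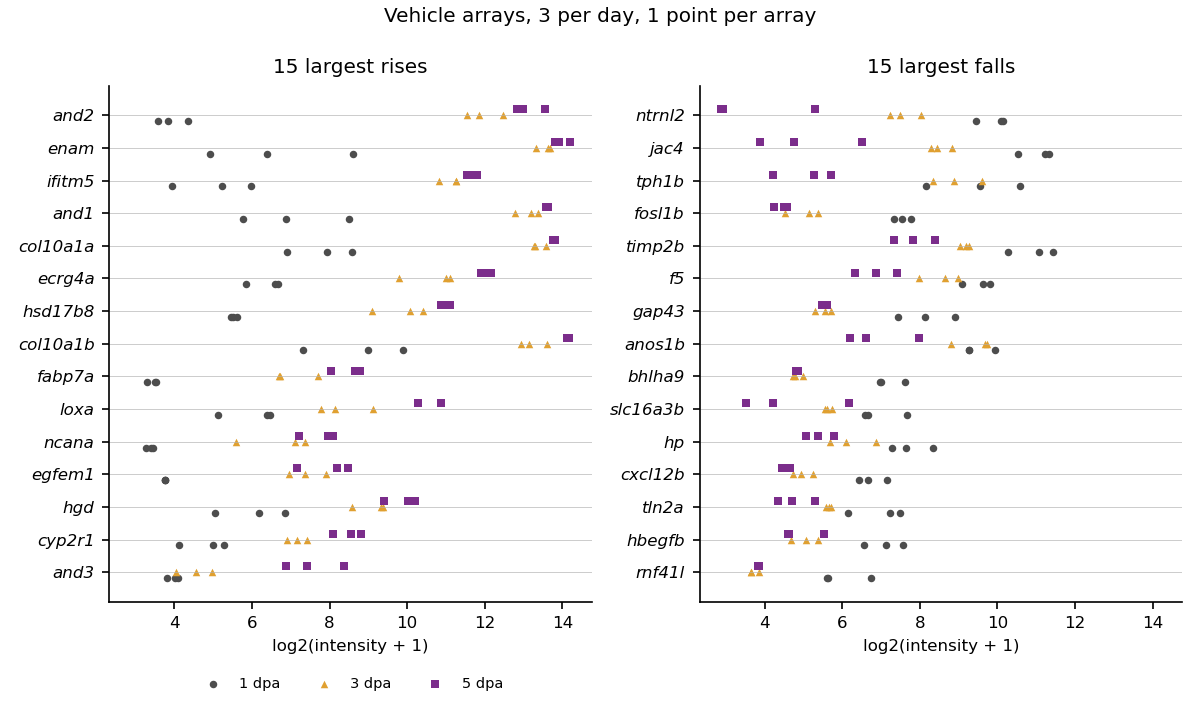
Levels (horizontal axis, log2 of intensity + 1) of the 15 largest rises and the 15 largest falls on the 9 vehicle arrays, with 1 point per array and 3 arrays at each of 1, 3 and 5 dpa. The 3 dpa mean of 14 of the 15 rises, and of 10 of the 15 falls, lay closer to 5 dpa than to 1 dpa.

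Of 43 measured msx, hox, dlx and other positional genes 18 rose and none fell, with a median of 0.53, and 1 fell without 1 dpa B. The count of rises was 11 without 5 dpa A or without 5 dpa C, and 4 in the 3-array check. dlx1a, a homeobox gene of appendage outgrowth, went from 5.30, 4.71 and 5.91 to 8.44, 8.0 and 8.70, a rise of 3.07 ± 0.34 (8.40-fold, adjusted p = 5.63e-05). msx3, of the msx family that marks blastema, went from 7.75, 8.52 and 8.64 to 10.23, 10.15 and 10.02, a rise of 1.83 ± 0.21. It had reached 10.13, 10.22 and 10.31 by 3 dpa. dlx2a and dlx4b rose by 1.46 ± 0.26 and 1.44 ± 0.25. hoxc13a, a 5' hox gene of the distal fin, rose by 1.29 ± 0.20 and hoxa9b by 1.40 ± 0.29. In the 3-array check the differences of hoxc13a and dlx4b were 0.76 and 1.08, with adjusted p of 0.099 and 0.11.

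Signalling genes were read by role, from ligands and receptors to targets. The shares that rose were 34.4% (Bmp and Tgf-beta), 25% (Fgf), 18.2% (Wnt) and 27.3% (Hedgehog), against 7.46% of all genes. The shares that fell were 3.12%, 0%, 3.03% and 0% in that order, against 14.3%. In the Bmp and Tgf-beta list, 11 of 32 genes rose and 1 fell (median 0.58), with 5 and 0 in the 3-array check. Among the ligands bmp5 rose from 4.74, 4.38 and 4.48 to 7.76, 7.63 and 7.33, by 3.04 ± 0.27 (8.25-fold, adjusted p = 9.90e-06). gdf6a rose by 0.98 ± 0.18 and inhbb, an activin subunit gene, by 1.52 ± 0.27. The inhibitors smad6a and nog1 rose by 1.29 ± 0.20 and 1.31 ± 0.21, nog1 at dim levels, and tgfbi, a matrix protein induced by Tgf-beta, rose by 2.52 ± 0.45. In the Fgf list 6 of 24 genes rose and none fell (median 0.51), 3 of them without 5 dpa C and 4 in the 3-array check. In a fit with letter blocks 1 Fgf gene fell. The ligand fgf24 went from 4.73, 3.87 and 4.66 to 6.65, 6.33 and 6.06, a rise of 1.93 ± 0.41. The receptors fgfr4 and fgfr3 rose by 1.39 ± 0.24 and 1.26 ± 0.25. Of the feedback targets, dusp6 rose by 0.73 ± 0.21, a call that ended without 1 dpa D, 1 dpa E or 5 dpa C and in a fit with letter blocks (adjusted p = 0.335). Another dusp6 set differed by 0.28 (adjusted p = 0.38).

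In the Wnt list 6 of 33 genes rose and 1 fell (median 0.29), with 2 and 0 in the 3-array check. The receptor fzd9b went from 5.42, 5.61 and 5.82 to 8.35, 8.34 and 7.83, a rise of 2.56 ± 0.30 (5.91-fold, adjusted p = 7.93e-05). fzd7a rose by 1.54 ± 0.33, and the secreted antagonist notum1b and the dickkopf relative dkk3b rose by 1.53 ± 0.32 and 1.54 ± 0.37. Without 1 dpa B 2 genes fell. fzd10 fell by 0.91 on the log2 scale, a call that ended without 1 dpa E or 5 dpa C and in a fit with letter blocks (adjusted p = 0.109), and another fzd10 set differed by -0.88 (adjusted p = 0.337). In the Hedgehog list 3 of 11 genes rose and none fell, with a median of 0.10 that was 0.07 in the 3-array check. Of these rises, shha and hhip are among the genes listed above that did not pass that check. The ligand shha rose from 4.54, 4.15 and 3.49 to 5.82, 5.95 and 5.75, by 1.78 ± 0.36 (adjusted p = 0.00326), and its levels at 3 dpa were 6.29, 6.11 and 6.34. The transcription factor gli3 rose by 1.09 ± 0.19. hhip, an inhibitor, rose by 1.14 ± 0.34, which did not pass without any 1 of 5 arrays (1 dpa B excepted) or in a fit with letter blocks (adjusted p = 0.322).

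Of 23 retinoid genes 4 rose and 1 fell (4.35%, against 14.3% of all genes), with a median of 0.14, and with 2 and 1 in the 3-array check. Without 1 dpa E another gene fell. bco1, which cleaves carotene to retinal, rose by 1.64 ± 0.22 from 8.09, 7.22 and 8.06 to 9.67, 9.26 and 9.36. dhrs3a, a retinal reductase, rose by 1.35 ± 0.23 and stra6, the retinol transporter, by 1.24 ± 0.23, both from dim levels. cyp26b1, which degrades retinoic acid, was bright and rose by 0.64 ± 0.15. crabp2b, a binding protein for retinoic acid, fell by 1.01 on the log2 scale (SE 0.21, adjusted p = 0.00425). In the Notch list 1 of 20 genes rose and 1 fell, 5% each, against 7.46% and 14.3% of all genes. The ligand jag1a went from 10.85, 11.21 and 10.85 to 8.65, 9.19 and 9.47, a fall of 3.64-fold (difference -1.87 ± 0.27, adjusted p = 0.000267). The target her6 rose by 0.89 ± 0.26, a call that among the arrays left out singly held only for 1 dpa E. Without 1 dpa E 2 Notch genes fell, and in the 3-array check none rose and 1 fell. The cartilage regulators gave 2 rises of 11 (18.2%, against 7.46% of all genes), led by ccn2a (1.85 ± 0.38), a matricellular protein. The count was 1 to 3 with single arrays left out and 1 in a fit with letter blocks. The median of this list was 0.13, and 0.16 in the 3-array check.

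The 15 largest falls ran from 4.41-fold to 72.7-fold and included genes of coagulation, chemokine and growth factor signalling, serotonin synthesis and axon growth. For 12 of them the 3 dpa mean lay between those of 1 and 5 dpa. ntrnl2, a natterin-like gene, and jac4, a jacalin-type lectin gene, fell furthest. ntrnl2 went from 9.45, 10.09 and 10.14 at 1 dpa through 7.24, 8.04 and 7.48 at 3 dpa to 2.89, 2.94 and 5.30 at 5 dpa. The fall was 72.7-fold (difference -6.18 ± 0.80, adjusted p = 0.000138) and 126-fold without 5 dpa C, the highest of the 5 dpa arrays. jac4 went from 10.54, 11.23 and 11.34 through 8.45, 8.82 and 8.28 to 4.77, 3.88 and 6.51. It fell 63.5-fold (difference -5.99 ± 0.74), 42.3-fold without 5 dpa B and 105-fold without 5 dpa C. For both genes 5 dpa C was the highest of the 5 dpa arrays. That no 5 dpa array reached the 1 dpa levels follows from the rule, which took only genes without overlap.

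tph1b, a tryptophan hydroxylase that limits serotonin synthesis, went from 8.16, 10.59 and 9.54 to 5.72, 4.22 and 5.27. It fell 20.5-fold (difference -4.36 ± 0.61, adjusted p = 0.000232) and 31.8-fold without 1 dpa B, and another set of the gene differed by -2.63 (adjusted p = 0.00562). Unlike most of the falls it was still high at 3 dpa, at 9.61, 8.88 and 8.34. gap43, a protein of growing axons, had levels of 7.45, 8.14 and 8.90 at 1 dpa and 5.55, 5.60 and 5.49 at 5 dpa. Its 3 dpa arrays, at 5.57, 5.30 and 5.70, were already at the 5 dpa level. f5, coagulation factor V, fell 6.23-fold (difference -2.64 ± 0.28), hp, the haemoglobin-binding protein haptoglobin, fell 5.03-fold, and hbegfb, an epidermal growth factor receptor ligand, fell 4.46-fold. anos1b, a paralogue of the anos1a that rose, fell 5.95-fold, and its levels of 9.67, 8.81 and 9.73 at 3 dpa were those of 1 dpa. Its adjusted p was 0.0017 over all arrays and 0.158 in the 3-array check. bhlha9, a transcription factor gene, fell 5.14-fold (adjusted p = 0.00219, and 0.0674 in the 3-array check). tln2a, a talin that links integrins to actin, fell 4.53-fold and rnf41l, a RING finger gene, 4.41-fold. slc16a3b, a lactate transporter, fell 5.04-fold with an adjusted p of 0.0141, but the call ended without 1 dpa B, 5 dpa A or 5 dpa B and its difference was -0.44 in the 3-array check. Without 5 dpa C its fall was 8.59-fold. At 5 dpa 11 of the 15 largest falls had a mean level under the 40th percentile.

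The AP-1 and inflammation lists held 2 of these genes, and most of their other members did not pass. Of 18 AP-1 and immediate wound factors 1 rose (5.56%) and 3 fell (16.7%), against 7.46% and 14.3% of all genes. Their median was 0.14. In a fit with letter blocks none rose and 9 fell, with a median of -0.91, and within letter B the median was -0.42. In the 3-array check it moved the other way, to 0.57. fosl1b, a Fos family gene, went from 7.33, 7.77 and 7.53 to 4.57, 4.25 and 4.49, a fall of 8.61-fold (difference -3.11 ± 0.41, adjusted p = 0.000147). junba went from 12.84, 13.50 and 13.09 to 11.90, 11.75 and 12.51, a difference of -1.09 ± 0.24 (adjusted p = 0.00572), against -0.79 (adjusted p = 0.181) in the 3-array check. fosl2 fell by 0.97 on the log2 scale, a call that ended without 1 dpa D or 5 dpa A, and 2 other fosl2 sets differed by -1.0 (adjusted p = 0.0597) and -0.44 (adjusted p = 0.257). jun differed by 0.69 (adjusted p = 0.0315) in the other direction, and another jun set by 0.94 (adjusted p = 0.026). The call of the first set ended without any 1 of 4 arrays (1 dpa E and each 5 dpa array). It also ended in a fit with letter blocks (adjusted p = 0.174). Of 13 inflammation genes, each read by its brightest set, none rose and 2 fell (15.4%, against 14.3% of all genes). Their median was 0.04, but -0.12 in a fit with letter blocks, -0.36 within letter B and 0.42 in the 3-array check. cxcl12b, a chemokine, went from 6.67, 6.43 and 7.15 to 4.45, 4.50 and 4.66, a fall of 4.64-fold (adjusted p = 0.000417). Its paralogue cxcl12a differed by 1.21 (adjusted p = 0.147), but another cxcl12a set rose by 1.54 (adjusted p = 0.0127). socs3b, a brake on cytokine signalling, fell by 0.92 on the log2 scale, a call that ended without 1 dpa D, 1 dpa E, 5 dpa A or 5 dpa B. Without 1 dpa B, 2 inflammation genes rose. In the 3-array check 1 AP-1 gene and 1 inflammation gene fell and none rose.

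**Figure D3:**
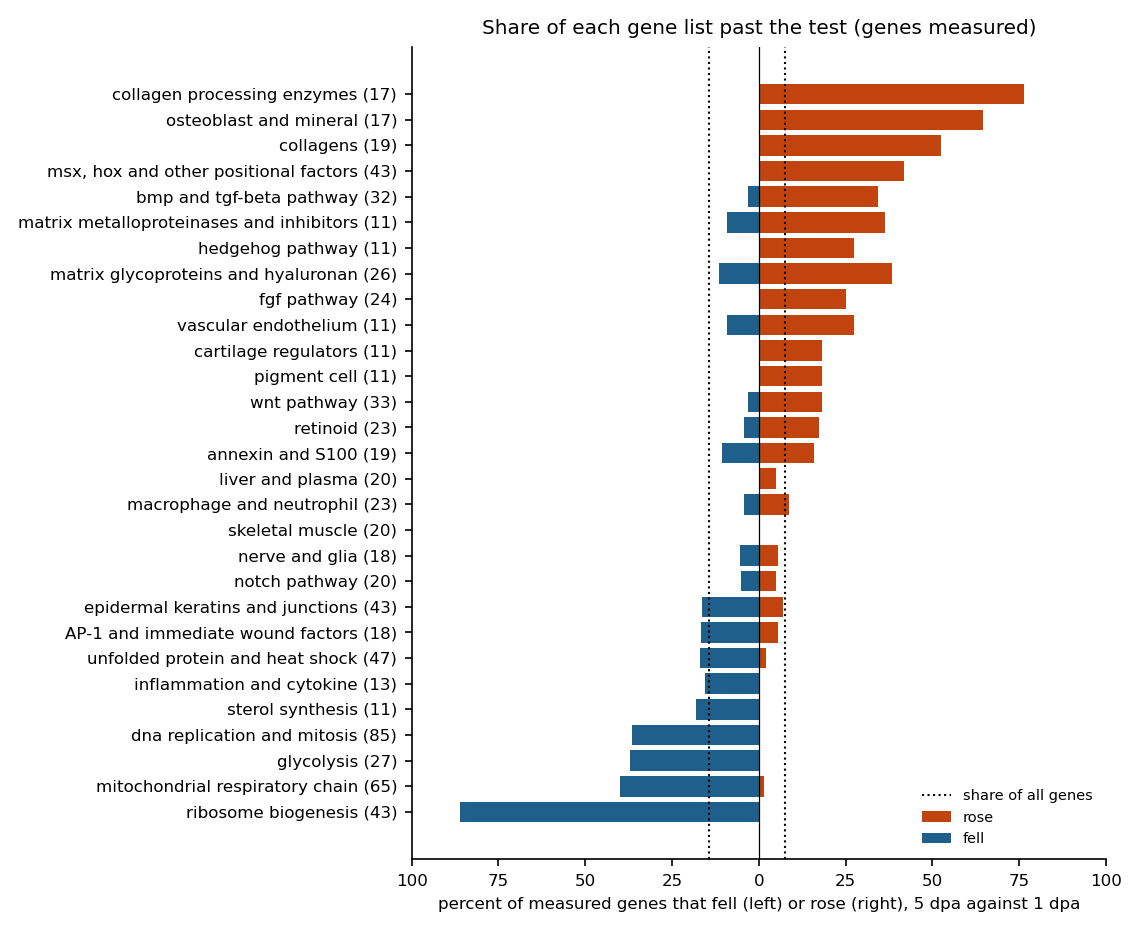
Percent of the measured genes of each larger list that fell (bars to the left) or rose (bars to the right) between 1 and 5 dpa, with dotted lines at the 14.3% and 7.46% of all genes. The lists with the fewest measured genes are not drawn (actinodin, small leucine-rich proteoglycan, smooth muscle, erythrocyte and lymphocyte). Collagen processing rose in 76.5% of its genes and ribosome biogenesis fell in 86.0% of its genes.

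Of 43 genes of ribosome biogenesis 37 fell and none rose, with a median of -1.10, and leaving out any 1 array gave 32 to 35. In the 3-array check 11 fell, with a median of -1.01. fbl, the methyltransferase fibrillarin of the nucleolus, went from 11.26, 10.95 and 11.14 to 9.80, 9.71 and 9.94, a fall by 1.30 on the log2 scale (SE 0.16, adjusted p = 8.35e-05). npm1a, the nucleolar protein nucleophosmin, went from 12.56, 12.36 and 12.53 to 10.89, 11.01 and 11.07, and fell by 1.49 on the log2 scale. Another npm1a set was dim and differed by 0.18 (adjusted p = 0.528). The 3 dpa arrays of both genes lay between the days, at 10.41, 10.33 and 10.18 for fbl and 11.71, 11.87 and 11.37 for npm1a. imp4, of the small subunit processome, fell by 1.5 on the log2 scale, nop2, an rRNA methyltransferase, by 1.38 and nolc1, a nucleolar phosphoprotein, by 1.34. Each of these falls was under 3-fold. The 3 arrays of each day did not overlap for any of the 5, but these were picked for small adjusted p. Of all genes 22.6% lay wholly lower at 5 dpa.

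Genes of DNA replication and mitosis fell in 31 of 85 (36.5%, against 14.3% of all genes), with none higher and a median of -0.59. The count depended on single arrays. It was 15 without 1 dpa E, 17 without 5 dpa C, 19 without 5 dpa B and 41 without 1 dpa B, 20 in a fit with letter blocks and 7 in the 3-array check. The median within letter B, the letter both days hold, was -0.28, and in the 3-array check it was -0.83. orc2, of the origin recognition complex, went from 8.03, 7.79 and 8.47 to 6.98, 6.94 and 6.65, a fall by 1.24 on the log2 scale (SE 0.25, adjusted p = 0.00305). uhrf1, which keeps DNA methylation at replication, fell by 1.15 on the log2 scale, and rpa3, of the single-strand binding complex, by 1.03. Another uhrf1 set differed by -0.64 (adjusted p = 0.456).

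Of 65 genes of the mitochondrial respiratory chain 26 fell and 1 rose, with a median of -0.37. The falls numbered 11 without 1 dpa E, 13 without 5 dpa B, 14 without 1 dpa D, 16 without 5 dpa C and 4 in the 3-array check. cycsb, cytochrome c, went from 12.79, 12.95 and 12.91 to 11.84, 11.94 and 12.10, and fell by 0.93 on the log2 scale (SE 0.11, adjusted p = 6.14e-05). The single rise was cox4i2, the isoform of a cytochrome oxidase subunit known from oxygen-poor conditions in mammals. It went from 6.47, 5.37 and 4.86 to 8.84, 8.72 and 8.76, a rise of 3.21 ± 0.36 (9.24-fold, adjusted p = 5.90e-05). Of 27 glycolysis genes 10 fell and none rose (median -0.19), and 4 fell in the 3-array check. Without 1 dpa B or without 5 dpa C 1 rose. pfkpa, a phosphofructokinase, went from 9.10, 9.13 and 9.43 to 7.88, 7.91 and 8.0, a fall by 1.29 on the log2 scale (SE 0.13). ldha, lactate dehydrogenase, fell by 1.32, pgk1 by 1.02 and eno1a by 0.96 on the same scale. Of 47 genes of protein folding and heat shock 8 fell and 1 rose, with 4 falls without 1 dpa E, 5 without 5 dpa B and 3 in the 3-array check. In a fit with letter blocks 10 fell and 5 rose. With all arrays and no blocks 17% of this list fell and 2.13% rose, against 14.3% and 7.46% of all genes. The mitochondrial chaperonin hspe1 fell by 1.17 on the log2 scale, and kdelr3, a retrieval receptor of the secretory pathway, rose by 1.05 ± 0.20. Of 11 sterol synthesis genes 2 fell (18.2%, against 14.3% of all genes), and 1 without 1 dpa B, 1 dpa D, 5 dpa B or 5 dpa C. Their median was -0.01, and -0.07 in the 3-array check.

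**Figure D4:**
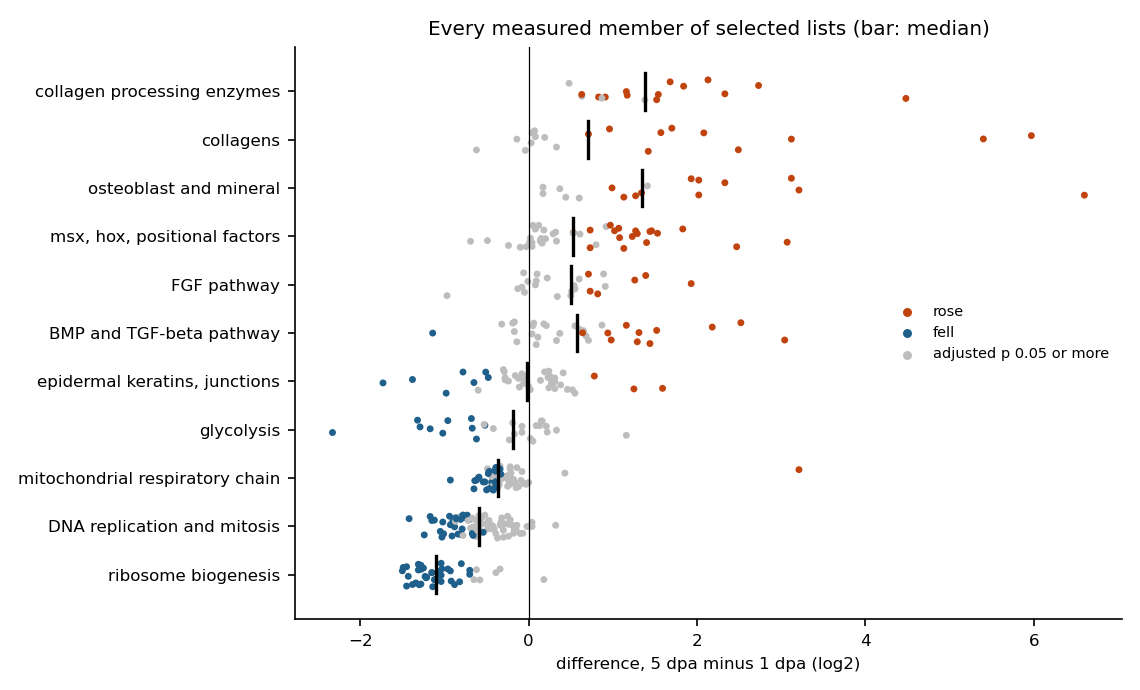
Difference between 5 and 1 dpa (horizontal axis, log2) for every measured gene of 11 lists, with 1 point per gene, a bar at the median and colours for genes that rose, fell or did not pass. Ribosome biogenesis sits around -1.10 as a block, whereas the matrix and bone lists reach far to the right of their medians of 0.71 to 1.38.

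The summed intensity of 9 epidermis markers, taken to log2 after summing, was 16.30 to 16.40 at 1 dpa and 16.22 to 16.36 at 5 dpa. Of these markers 2 passed, both lower at 5 dpa. krt4 differed by -0.48 (adjusted p = 0.0108), a call that ended without 1 dpa E, and tp63 by -0.51 (adjusted p = 0.0467). Neither is among the 123 genes counted above. Of 43 genes of epidermal keratins and junctions 3 rose (6.98%) and 7 fell (16.3%), near the 7.46% and 14.3% of all genes. Their median was -0.02. Leaving out 1 array gave 3 to 5 falls and 1 to 4 rises, letter blocks gave 4 of each, and the 3-array check gave 3 falls and no rise. The simple-epithelium keratin krt18a.1 went from 14.71, 14.91 and 14.84 to 13.75, 13.69 and 14.09, and fell by 0.98 on the log2 scale (SE 0.12, adjusted p = 8.35e-05). krt97 fell by 0.78, and pkp1b, a desmosome protein, fell by 1.38 on the same scale, whereas anxa1c, an annexin, rose by 1.25 ± 0.30. krt5, a basal keratin, was 14.31 ± 0.04 at 1 dpa and 14.33 ± 0.08 at 5 dpa.

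Of 23 macrophage and neutrophil genes (median -0.08) 2 rose (8.7%) and 1 fell (4.35%), against 7.46% and 14.3% of all genes. The fall was grna.1, a granulin, from 10.48, 10.21 and 10.74 to 8.58, 9.11 and 9.16 (difference -1.52 ± 0.20, adjusted p = 0.000156). apoeb, an apolipoprotein, rose by 0.46 ± 0.10, with an adjusted p of 0.0577 in a fit with letter blocks. cd74a, the invariant chain of antigen presentation, rose by 0.51 ± 0.15, a call that ended without 1 dpa D, 1 dpa E, 5 dpa B or 5 dpa C. In a fit with letter blocks 6 genes of this list fell, and in the 3-array check 1 rose and 1 fell. The summed intensity of the 3 measured macrophage markers, as log2, was 9.40 to 10.04 at 1 dpa and 9.16 to 9.80 at 5 dpa. By the same measure the 4 erythrocyte markers stood at 10.92 to 12.02 at 1 dpa and 12.28 to 12.42 at 5 dpa. That sum mostly reflects 1 bright member, the haemoglobin gene hbaa1, since the next, hbba2, had mean levels of 6.97 and 7.94. Levels of hbaa1 were 11.36, 10.83 and 11.93 at 1 dpa and 12.23, 12.33 and 12.20 at 5 dpa. Its difference was 0.88, with an adjusted p of 0.0563. alas2, of haem synthesis, was the 1 of 9 erythrocyte genes that rose (0.69 ± 0.20), a call lost without any 1 array other than 1 dpa B. In a fit with letter blocks 3 of the 9 rose, and none did in the 3-array check. The part of blood content in other differences was not tested.

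Of 11 genes of vascular endothelium 3 rose (27.3%) and 1 fell (9.09%), against 7.46% and 14.3% of all genes. Their median was 0.22, and 0.19 in the 3-array check. plvapb, a protein of endothelial openings, went from 9.35, 8.95 and 8.88 to 10.62, 10.34 and 10.56, a rise of 1.44 ± 0.17 (adjusted p = 7.93e-05). The endothelial transcription factors erg and fli1 rose by 1.05 ± 0.24 and 0.80 ± 0.18, and a dim set of fli1 differed by 0.29 (adjusted p = 0.406). Of the other measured endothelium markers, kdrl differed by -0.12 (adjusted p = 0.654) and tie1, at dim levels, by 0.36 (adjusted p = 0.572). vegfaa, the growth factor for vessels, fell by 0.65 on the log2 scale, a call lost without 1 dpa D and in a fit with letter blocks (adjusted p = 0.0669). Of 6 smooth muscle genes 2 rose, 1 of them in the 3-array check and when any 1 array other than 1 dpa B was left out. mylka, a myosin light chain kinase, rose by 3.14 ± 0.35 (8.79-fold), measured by a set that can match more than 1 transcript. None of 20 skeletal muscle genes changed, against 1 that rose without 5 dpa C, and 19 of them were under the 40th percentile. Of 18 nerve and glia genes fabp7a rose and gap43 fell (5.56% each, against 7.46% and 14.3% of all genes), and none of the other 16 passed. Without 1 dpa B 2 rose, and in a fit with letter blocks 3 fell. Of 11 pigment cell genes 2 rose (18.2%, against 7.46% of all genes). At most 1 of them rose when any array was left out or in a fit with letter blocks. Their median was 0.06, and 0.03 in the 3-array check. Of 19 annexin and S100 genes 3 rose and 2 fell (15.8% and 10.5%, against 7.46% and 14.3% of all genes). Without 1 dpa B, 1 dpa E, 5 dpa A or 5 dpa C 1 fell, and none did with letter blocks. Their median was 0.07, and 0.05 in the 3-array check. The list does not hold every measured annexin. anxa1d, outside it and not among the 123 genes counted above, differed by 1.48 (adjusted p = 0.0034). Of 20 liver and plasma genes 1 rose (5%, against 7.46% of all genes), the apolipoprotein gene apoc1 (1.88 ± 0.42). Without 1 dpa B or 5 dpa A 2 of them rose, and none did in the 3-array check. None of 3 lymphocyte genes passed, and all 3 were dim.

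The same days were compared on the TCDD arrays, which share no array with the vehicle comparison. The 2 sets of calls are still not independent. Both came from 1 model with a shared estimate of spread, and arrays of the same letter deviated together. There 736 genes rose (8.37%) and 1248 fell (14.2%). Both comparisons called 359 genes higher, 54.7% of the vehicle rises and 48.8% of the TCDD rises. Both called 809 genes lower, 64.5% of the vehicle falls and 64.8% of the TCDD falls. Opposite calls were given to 1 of the vehicle rises and 2 of the vehicle falls. Of the 30 genes named for size all had the same sign under TCDD, 25 also passed there, and none differed between the exposures by the test of the difference. and2 rose by 9.20 on vehicle and 7.35 on TCDD arrays, and enam by 7.34 and 9.29. loxa rose by 4.48 and 1.62 and fabp7a by 5.05 and 2.05, a pair picked after values were seen. ntrnl2 and jac4 differed by -1.08 (adjusted p = 0.368) and -1.25 (adjusted p = 0.254) on TCDD arrays, where the 5 dpa levels of ntrnl2 were 10.12, 7.76 and 6.72 for letters A, B and D. The differences between the exposures were -5.10 and -4.74, both with an adjusted p of 0.0938. Over all probe sets 13 of 15502 (0.0839%) passed the test of the difference, and 2333 had an unadjusted p under 0.05. They included 5 named genes, 0.0569% of 8793.

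**Figure D5:**
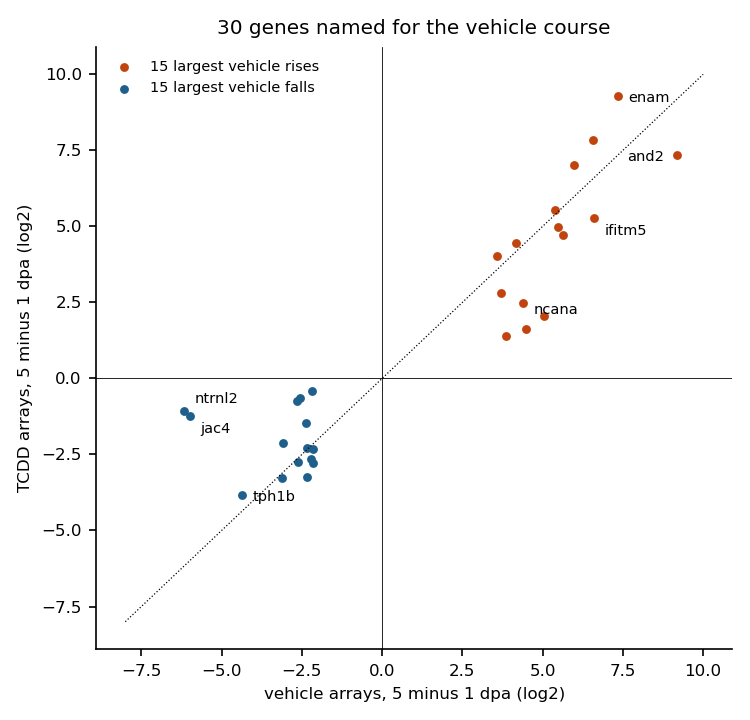
Difference between 5 and 1 dpa (log2) on TCDD arrays (vertical axis) against vehicle arrays (horizontal axis) for the 15 largest vehicle rises and 15 largest vehicle falls, with the diagonal marking equal change. All 30 genes have the same sign under both exposures, and ntrnl2 and jac4 lie farthest from the diagonal, with vehicle differences of -6.18 and -5.99 and TCDD differences of -1.08 and -1.25.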

How the data were processed

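The authors deposited 1 linear intensity per probe set and array. Per the submitters' processing notes the tool was GCRMA, of unstated version (not given in the sources used here), and scanner files were not used. The 115 Affymetrix controls among 15617 probe sets were dropped. Of the other 15502, 10795 had 1 gene symbol in the platform annotation (10711 found in a RefSeq gene table), 135 several and 4572 none. The 8793 genes were each represented by the probe set with 1 symbol of highest mean. Groups and letters came from the labels.

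The deposited intensity values were taken to log2(intensity + 1), which understates changes of dim genes, and fitted with limma 3.58.1 in R 4.3.3 as 6 group means over 18 arrays (eBayes with a trend, two-sided). The contrasts were vehicle 5 minus 1 dpa, the same for TCDD, and their difference. Benjamini-Hochberg adjustment ran over all 15502 probe sets, at a threshold of 0.05. Folds of named genes moved by more than 1.5 times by 1 array are given. With 3 arrays a group, no exact permutation test could pass. The script was tested on simulated data. Plots used matplotlib 3.10.9 (Python 3.11.15).

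Named genes are the 15 largest rises and 15 largest falls with an absolute log2 difference of at least 1, no overlap and a level of at least 5 in the higher group, plus up to 6 members of each of 34 gene lists with the smallest adjusted p. Clone names, 80 of the 1911 genes, were counted only. Members and lists were chosen with earlier results of these data known, so lists are described by counts and medians.

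Letters pair the arrays: deviations from the group mean correlated above 0.1 in 7 of 7 same-letter pairs of a day (0.20 to 0.70), against 2 of 20 pairs of different letters. Vehicle arrays of 1 and 5 dpa share only letter B (r = 0.42). What a letter stands for is not in the labels. Alternatives were other normalizations, a pseudocount of 16, a filter on dim sets, a constant prior, fewer arrays, the letter as a block and each array left out. The fit without the 3 arrays of raised cyp1a was added after seeing the data.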

Additional observations from a re-analysis of the deposited data

Results flagged for a closer look

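The change from 1 to 5 dpa differed between vehicle and TCDD fish, by the limma test of the difference, for 5 named genes and for 8 unnamed probe sets, of which the one with the smallest adjusted p in each direction is given. All were picked once values had been seen. The first unnamed probe set had levels of 4.27, 4.09 and 4.34 at 1 dpa and 9.88, 10.70 and 10.65 at 5 dpa on vehicle arrays, against 4.19, 4.2 and 4.45 and 5.73, 7.30 and 6.60 on TCDD arrays. It was higher at 5 dpa in both, and the vehicle change exceeded the TCDD change by 3.92 ± 0.44 (adjusted p = 0.00328, and 0.00457 with letter blocks). On vehicle arrays at 3 dpa it was still at 4.14, 4.67 and 4.25. The other unnamed probe set fell from a mean of 6.81 to 3.86 on vehicle arrays and from 4.4 to 3.34 on TCDD arrays, a difference between the changes of -1.89 (adjusted p = 0.00556, and 0.0814 with letter blocks).

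anxa6, a membrane-binding annexin, went from 4.02 ± 0.04 to 5.11 ± 0.07 (mean ± SD, n = 3) on vehicle arrays and from 4.09 ± 0.18 to 3.93 ± 0.19 on TCDD arrays. The changes differed by 1.26 ± 0.18 (adjusted p = 0.0128, and 0.0997 with letter blocks), at dim levels. gpx1b, a glutathione peroxidase, was 6.69 ± 0.08 and 6.69 ± 0.13 on vehicle arrays and went from 6.78 ± 0.19 to 8.58 ± 0.09 on TCDD arrays, with a difference between the changes of -1.79 ± 0.26 (adjusted p = 0.0128, and 0.0997 with letter blocks). cyp2k6 (0.47), prss1 (0.83) and tatdn2 (0.40) also passed, with all group means under 4 and no pass with letter blocks. Groups of 3 arrays were not screened for single outlying arrays.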

How the results depend on the processing

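The count of probe sets that passed from 1 to 5 dpa was 2679 (1119 higher and 1560 lower), with 4540 at an unadjusted p under 0.05. It was 1651 (720 and 931) with only the 6 arrays compared, 1011 (483 and 528) without the 3 arrays of raised cyp1a, chosen after seeing the data, and 1815 to 2821 over the fits that leave out 1 array. The letter as a fixed replicate block gave 2310 (1002 and 1308) and as a random block 3143. The 13 probe sets whose change differed between exposures became 3 with quantile normalization, 6 with median centring, 2 without dim sets, 6 with a constant prior, 1 with the fixed block and 43 with the random block, and ran from 5 to 197 over the fits that leave out 1 array. The cause of these shifts was not tested. The 30 genes named for size kept their calls under both blocks, and all but slc16a3b with each vehicle array left out; 26 of 30 passed without the 3 arrays of raised cyp1a. The dim genes fbln1 and kera, at 0.09 and 0.00 with all arrays, changed sign, with -0.01 for fbln1 under quantile normalization, -0.12 to 0.40 for fbln1 and -0.02 to 0.03 for kera without 1 array. List medians changed sign for AP-1 (0.14 to -0.91 with the fixed block and -0.42 within letter B), inflammation (0.04 to -0.12 with the fixed block, -0.10 with the random block and -0.36 within letter B), annexin and S100 (0.07 to -0.01 within letter B), macrophage and neutrophil (-0.08 to 0.24) and epidermis (-0.02 to 0.12) without the 3 arrays of raised cyp1a, and nerve and glia (0.05 to -0.01) under quantile normalization. That normalization also gave 5 falls in matrix glycoproteins, 2 in retinoid and 1 in cartilage genes, and 1 rise in macrophage and neutrophil genes, and median centring gave 1 rise in smooth muscle genes. The precision is limited by 3 arrays a group, and folds of dim genes by the intensity floor.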

Other observations

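Some gene families outside the lists were looked at after values had been seen, so their counts are descriptions. The mitochondrial ribosomal proteins fell in 48 of 59 genes, with a median difference of -0.76 and a range of -1.31 to -0.26, and leaving out any 1 vehicle array gave 35 to 47 falls. On TCDD arrays 52 of the 59 fell, with the same median. The cytosolic ribosomal proteins, which make up the ribosomes of the cytoplasm, did not share this. Of 70 measured genes none rose and 1 fell, with a median of -0.04 and a range of -0.29 to 0.17, and no gene passed when any array was left out. They sit near the top of the intensity range, where differences can be compressed; whether that bears on the contrast was not tested.

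Other families with mostly lower transcripts at 5 dpa were the cytosolic aminoacyl-tRNA synthetases (11 of 13 fell, median -0.83), the tomm and timm genes of mitochondrial import (12 of 18, median -0.80), the RNA exosome (6 of 7, median -1.14), the nucleoporins (12 of 16, median -0.61) and the Sm and LSm proteins (15 of 22, median -0.67). None of their members rose. Leaving out 1 dpa E gave 6 falls among the nucleoporins, 5 dpa B or 5 dpa C gave 7. Of 40 proteasome subunits 22 fell, but 10 without 1 dpa D, without 1 dpa E or without 5 dpa B.

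Among the zic genes, transcription factors known from neural and dorsal patterning, 3 of 6 rose. zic2a went from 6.39, 6.82 and 6.96 to 9.25, 9.45 and 9.32 (difference 2.61 ± 0.24, adjusted p = 1.11e-05), and zic5 from 4.99, 4.86 and 5.65 to 8.13, 8.15 and 7.93 (2.90 ± 0.26, adjusted p = 1.02e-05). zic2b rose by 2.0 ± 0.39 (adjusted p = 0.00269). zic2a and zic5 were already at these levels at 3 dpa, and their differences on TCDD arrays were 2.76 and 3.28. zic1, zic4 and zic6 were dim on all vehicle arrays. Of 15 measured semaphorins, plexins and neuropilins, genes of axon and vessel guidance, 4 rose and 1 fell, against 7.46% and 14.3% of all genes. sema3d rose by 2.64 ± 0.48 from 4.42, 4.49 and 4.91 to 7.97, 6.4 and 7.36, and sema5a rose by 1.86 ± 0.30. The receptor gene nrp1a went from 5.06, 6.82 and 6.86 to 4.83, 4.99 and 4.72, a call that ended without 1 dpa D or 1 dpa E and in a fit with letter blocks (adjusted p = 0.153). The fall was 2.63-fold, and 3.98-fold without 1 dpa B.

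Beside tph1b, ddc, which encodes the next enzyme of serotonin synthesis, went from 6.12, 6.80 and 5.85 at 1 dpa to 4.28, 4.09 and 4.41 at 3 dpa and 4.30, 4.39 and 4.26 at 5 dpa (difference -1.94 ± 0.27, adjusted p = 0.000209). The 3 dpa arrays of ddc were at the 5 dpa level, while those of tph1b were near the 1 dpa level. tph1a and tph2 were dim throughout.

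ntrnl2 and jac4 are next to each other in the RefSeq gene order of zebrafish chromosome 7 (assembly GRCz12tu), within a run of jacalin-type and natterin-like genes in which jac1 was the only other one measured. jac1 moved the other way. Its levels were 8.09, 5.87 and 5.99 at 1 dpa and 9.83, 9.55 and 9.34 at 5 dpa, a difference of 2.92 ± 0.72 (7.57-fold, adjusted p = 0.0113) that was 12.5-fold without 1 dpa B. The call ended without 1 dpa D or 1 dpa E and in a fit with letter blocks (adjusted p = 0.101).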
